A study of Mus musculus with 2 samples.

Results

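Mature oligodendrocytes were sought among cells sorted from the adult mouse brain by a count of their own myelin transcripts. A cell counted as a member when Mog, Mag, Mobp and Mal together gave at least 3 unique molecular identifiers (UMIs, each standing for 1 captured RNA molecule), with at most 1 UMI of Pdgfra and Cspg4 and at most 1 of Dcx. The rule found 230 of 4151 kept brain cells (5.54%, exact binomial 95% interval 4.86% to 6.28%), out of 9759 kept cells in the brain and lung libraries together. They were set beside 117 oligodendrocyte progenitors (at least 2 UMIs of Pdgfra and Cspg4 and at least 1 of Olig1 and Olig2) and beside all 3921 other kept brain cells. The members were selected on the UMIs of Mog, Mag, Mobp, Mal, Pdgfra, Cspg4 and Dcx, and the progenitors on those of Pdgfra, Cspg4, Olig1 and Olig2. These genes were read from the same cells that are described here, so their levels are a description and support nothing. The data went against the label for 93 of the 230 members, which carried endothelial transcripts, and both comparisons of the whole set are therefore given with and without them. A further 51 members had at least 3 UMIs of a marker list of some other type, such as astrocyte, ependymal or microglial genes, which left 86 members with none. The astrocyte and quiescent stem cell list reached that limit in 56.4% of progenitors as well.

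Oligodendrocytes wrap axons of the central nervous system in myelin, a stack of membrane that is rich in cholesterol and galactolipids and is held together by a small set of proteins. They arise from progenitors marked by Pdgfra and Cspg4, pass through a short newly formed stage marked by Gpr17, Enpp6 and Bcas1, and then switch on the genes of compact myelin. Mag, an adhesion protein of the membrane next to the axon, Mog, a protein of the outermost myelin surface, and Mobp, a basic protein of compact myelin, mark the later part of that path. Mal is a small proteolipid of membrane sorting that oligodendrocytes share with several epithelial cell types.

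The cells came from adult Nestin-GFP mice of about 6 weeks, in which a fluorescent reporter marks cells that use Nestin regulatory sequence. GEO's annotation names C57BL/6 mice, whereas the study's methods describe CD1 and CD1 with C3H stock to which the transgenic lines were bred. Brain and lung tissue was dissociated with trypsin, the GFP-positive cells were sorted, and each tissue gave 1 droplet library, which was the whole of its group. With 1 brain library there was no replicate, so no difference below has a p-value, and every interval is a 95% interval that covers counting error only. Ratios are quotients of summed CPM, and the values after a ratio are its exact conditional binomial interval.

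The kept cells had more than 200 and fewer than 4000 genes and less than 40% mitochondrial UMIs. In all, 266 kept cells had at least 3 UMIs of the 4 markers, of which 8 were left out for Pdgfra and Cspg4 and 28 for Dcx. Members held 5469 UMIs at the median (654 to 16832), against 4854 in progenitors and 4151 in all other cells. The marker total itself ran from 3 to 561 UMIs with a median of only 6. Just inside the threshold, 52 cells had exactly 3 marker UMIs, and just outside it 113 cells had 2. Mbp, which the rule did not use, stood at 1069 counts per 1000000 UMIs (CPM, from UMIs summed over a group's cells) in the cells with 2 and 1266 CPM in the cells with 3, while 45.1% and 63.5% of them had at least 3 endothelial UMIs.

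Before the results, the barcodes were compared between the libraries. The brain and lung tables shared 15 cell barcodes, of which 6 were members: 4 with endothelial transcripts and 2 without. Of the 15 shared barcodes, 2 consisted of a single letter repeated and 5 were the same letters shifted by 1 to 6 positions, and 3 of these 7 were members. Leaving out all shared barcodes left 224 members and changed no count of genes below by more than 1.5 times. Scrublet called 2 members as doublets, and the calls were kept.

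The label was checked with 8 oligodendrocyte genes outside the rule, among them Mbp, Cnp, Cldn11, Opalin, Ermn, Hapln2 and Tspan2, and with markers of other cell types. Of the members, 93 had at least 3 UMIs of the endothelial list (Cldn5, Flt1, Cdh5, Pecam1, Ly6c1 and Slco1a4), 84 of them at least 50, while 124 members had none. These endothelial-marker members held 103 endothelial UMIs at the median and 1 UMI of the 8 check genes. The other 137 members held 174 UMIs of the check genes at the median. Mal was found in 90 of the 93 endothelial-marker members and gave 408 of their 464 marker UMIs (87.9%), against 39 UMIs of Mobp, 12 of Mag and 5 of Mog. The other 3 had no Mal UMI. They were not called oligodendrocytes below.

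**Figure D1:**
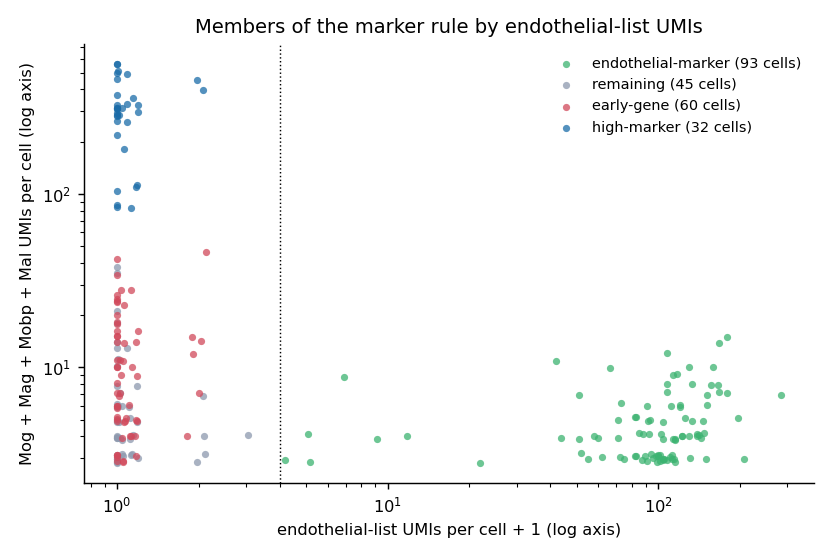
Each point is 1 of the 230 members, where the horizontal axis is its UMIs of the endothelial list plus 1 and the vertical axis its UMIs of Mog, Mag, Mobp and Mal, both on log axes with a small random offset. The endothelial-marker members lie right of the dotted line at 3 UMIs and reach at most 15 marker UMIs, whereas the high-marker cells lie left of it between 83 and 561.

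Mal was found in brain cells with endothelial markers whether or not they were members. Among all 329 kept brain cells with at least 5 UMIs of Cldn5, Flt1, Cdh5 and Pecam1, members or not, 61.7% had a Mal UMI and Mal stood at 435 CPM (400.2 to 472). Mag stood at 12.2 CPM and Mog at 1.52 CPM in the same cells. The makeup of the marker UMIs also differed, since Mal gave 88.3% of them there and 56.6% in the members with most marker UMIs. After thinning each cell to 1000 UMIs, a Mal UMI was found in 18.6% of 236 endothelial-marker cells that were not members and in none of 110 progenitors. For the progenitors, 3 cells taken as the limit of a count of 0 allow a share of up to 2.73%. Before thinning the shares were 48.3% and 1.71%. Lung cells led by the endothelial list held 2.71 CPM of Mal (1.09 to 5.59).

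The endothelial-marker members were set beside the other endothelial-marker cells. Of 6571 genes compared, 75 (1.14%) were higher and 182 (2.77%) lower by 2-fold or more in the members, which had also been chosen for Mal. The endothelial list had a median ratio of 1.08. Nes, the gene whose reporter was sorted for, was detected in 67.7% of them (349.8 CPM) and in 58.3% of the non-members (345 CPM).

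**Figure D2:**
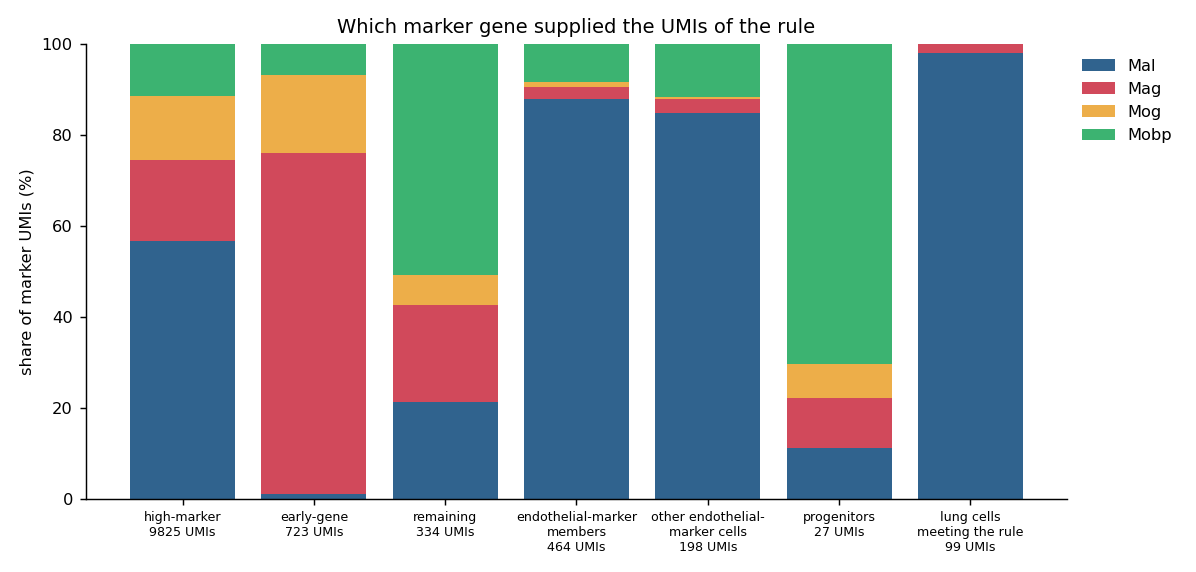
Stacked bars give the share of Mal, Mag, Mog and Mobp among all UMIs of the 4 markers in each group of cells, with the number of marker UMIs under each bar. Mal supplied 56.6% in high-marker cells, 0.968% in early-gene cells and 87.9% in endothelial-marker members, while Mag supplied 75.1% in early-gene cells.

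The 137 members without endothelial markers fell into 3 groups, whose limits are ranges of per-cell counts and not cell types. In 32 high-marker cells the 4 markers gave 83 to 561 UMIs, with a median of 309.5. No kept member lay between 46 and 83 marker UMIs, and the limit of 50 was set in that gap after the values were seen. Of the 105 members below it, 60 early-gene cells had at least 2 UMIs of Gpr17, Enpp6, Neu4, Bmp4 and Tmem2, genes of newly formed oligodendrocytes, and 45 remaining cells had fewer. Few cells lay near that limit: 7 had 1 early UMI, 2 had 2 and 56 had 5 or more. The early-gene cells held 47 early UMIs at the median and the high-marker cells 1. Progenitors held 4 (0 to 68) and Gpr17 was found in 80.3% of them, so passing the limit of 2 is not particular to the early-gene cells. The median depth was 10249.5 UMIs per early-gene cell and 13504.5 per high-marker cell and 2472 in the remaining cells.

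The 4 markers did not behave alike across these groups. Mag was present in 98.3% of early-gene cells, with 0, 6 and 38 UMIs per cell as the lowest, median and highest, and in every high-marker cell with 5, 46 and 365. Mog had 0, 1 and 12 UMIs in early-gene cells and 7, 46 and 95 in high-marker cells. Mobp had 0, 0 and 10 UMIs in early-gene cells and 5, 33.5 and 72 in high-marker cells, so the groups overlapped for Mag, Mog and Mobp but not for Mal. Mal had 0, 0 and 3 UMIs in early-gene cells, where 7 UMIs were found in all 60 cells, and 20, 170 and 392 in high-marker cells. Mal and Mobp thus had a high-marker over early-gene ratio of 1042 (505 to 2592) and 29.4 (22.2 to 39.9), with Mag at 4.24 (3.85 to 4.68) and Mog at 14.8 (12.3 to 17.9), each with its 95% interval. These ratios are descriptions, since the limit of 50 was set on the sum of the 4 genes.

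The promoters of the 4 markers are printed because the makeup of these transcripts differed between the groups. Each runs from 250 bases before to 50 bases after the start site in RefSeq, build GRCm38.p6, 5′ to 3′ on the strand of the gene, for Mal (chr2:127656646-127656945, minus strand), Mobp (chr9:120149492-120149791, plus strand), Mag (chr7:30914814-30915113, minus strand, the first of 3 starts listed) and Mog (chr17:37023349-37023648, minus strand). Capitals mark matches on either strand to the SOX core ACAAAG or ACAATG, the MYRF-type CTGGCAC or CTGGTAC, the E-box CAGCTG or the ETS-type CCGGAAG.
Mal promoter: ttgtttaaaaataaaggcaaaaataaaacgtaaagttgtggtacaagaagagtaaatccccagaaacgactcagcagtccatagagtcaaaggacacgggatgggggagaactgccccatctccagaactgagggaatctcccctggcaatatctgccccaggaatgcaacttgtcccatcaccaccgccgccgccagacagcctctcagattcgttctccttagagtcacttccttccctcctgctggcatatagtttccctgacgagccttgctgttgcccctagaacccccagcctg
Mobp promoter: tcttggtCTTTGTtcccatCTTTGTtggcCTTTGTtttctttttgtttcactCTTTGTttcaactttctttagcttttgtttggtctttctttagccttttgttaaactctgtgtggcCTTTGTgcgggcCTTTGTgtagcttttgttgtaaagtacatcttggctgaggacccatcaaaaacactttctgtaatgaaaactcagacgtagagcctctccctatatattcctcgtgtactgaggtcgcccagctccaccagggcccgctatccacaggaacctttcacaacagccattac
Mag promoter: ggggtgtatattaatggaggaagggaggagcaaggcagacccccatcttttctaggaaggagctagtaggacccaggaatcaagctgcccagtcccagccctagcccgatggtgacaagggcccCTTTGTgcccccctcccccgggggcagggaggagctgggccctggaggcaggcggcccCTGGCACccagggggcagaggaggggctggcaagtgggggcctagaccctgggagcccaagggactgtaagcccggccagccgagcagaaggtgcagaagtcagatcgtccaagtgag
Mog promoter: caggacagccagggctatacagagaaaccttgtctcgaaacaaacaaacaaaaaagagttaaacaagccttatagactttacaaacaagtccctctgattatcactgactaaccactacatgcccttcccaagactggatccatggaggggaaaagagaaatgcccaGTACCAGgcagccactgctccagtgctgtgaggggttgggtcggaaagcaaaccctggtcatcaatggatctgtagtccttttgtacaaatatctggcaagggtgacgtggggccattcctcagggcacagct

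The Mag window held CTGGCAC 68 bases before the start and ACAAAG 126 bases before it, and the Mog window held CTGGTAC 83 bases before the start. The Mobp window held ACAAAG 6 times, which no other of 27025 genes' promoters of this length did, and no match lay in the Mal window. Over all those promoters, ACAAAG was found in 18.7%, ACAATG in 12.8%, CTGGCAC in 5.0%, CTGGTAC in 2.22%, CAGCTG in 16.1% and CCGGAAG in 9.12%. None of these searches measured binding of a factor.

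The upper limit of 4000 genes bore more on the high-marker and early-gene cells than on any other members. Without it, 129 more barcodes met the marker rule, of which 53 were high-marker and 71 early-gene, but 2 endothelial-marker and 3 remaining. The limit had therefore taken 62.4% of 85 high-marker barcodes and 54.2% of 131 early-gene barcodes, against 11.4% of 132 progenitors. It had also taken the cells between the groups. In the gap between the kept groups lay 10 of those barcodes, and 25 of the 53 deeper high-marker barcodes had at least 10 early UMIs, against 1 of 32 kept ones. Whether these barcodes held 1 cell or several was not tested beyond Scrublet on the kept cells. The progenitors changed as well. With no upper limit, Mal and Mag gave 45% and 27.1% of the marker UMIs of the 132 progenitors. In the 117 kept progenitors they gave 11.1% each, of only 27 such UMIs. Ratios over progenitors with no upper limit therefore had both groups changed, and the part of the progenitors in their moves was not tested.

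**Figure D3:**
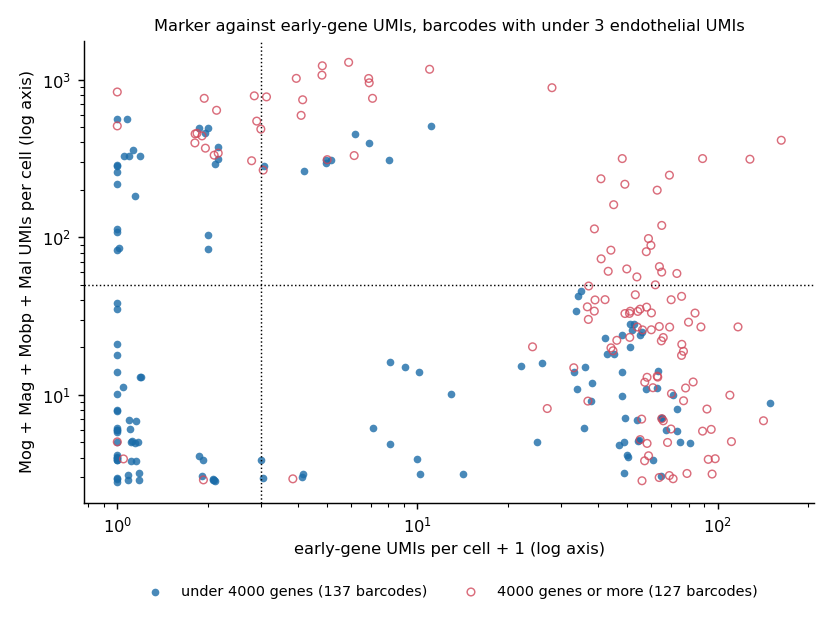
Each point is a barcode that met the marker rule with fewer than 3 endothelial UMIs, plotted by its UMIs of the 5 early genes plus 1 and its UMIs of the 4 markers, on log axes with a small random offset. Filled points are the 137 kept members and open points the 127 barcodes with 4000 genes or more. In the upper right lie 25 open points with at least 50 marker and 10 early UMIs. The kept members leave a gap between 46 and 83 marker UMIs, where 10 open points lie. The other open points lie elsewhere in the plot.

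Set against progenitors as a whole, the 230 members were a mixture. Of 7929 genes compared, 1073 (13.5%) were higher by 2-fold or more and 1194 (15.1%) lower. Scaled to the median gene they were 1290 and 854, so that more genes were higher than lower. Outside the rule, the 20 largest ratios held endothelial genes beside oligodendrocyte genes. Ly6c1 was at 670.1 (120.1 to 26482) and Cldn5 at 443 (173 to 1625), while Car2, a carbonic anhydrase, was at 479 (85.9 to 18949.5), Trf, transferrin, at 238 (42.6 to 9431) and Opalin at 122 (33.7 to 1013). All 6 endothelial genes were higher, as were 12 of 14 myelin genes outside the rule. With the barcodes of 4000 genes or more let in on both sides, the ratios were 18.6 for Ly6c1, 14.7 for Cldn5, 10.7 for Car2, 9.63 for Trf and 7.97 for Opalin, and with the mean of per-cell CPM Trf was at 22.8. Without the endothelial-marker members, 776 of 7619 genes (10.2%) were higher and 1434 (18.8%) lower, and the leading genes outside the rule were Car2 at 629 (113 to 24848), Trf at 341 (61 to 13486), Ptgds, a prostaglandin D synthase, at 265 (171 to 434) and Opalin at 175 (48.2 to 1446). Markers of other types were higher in this set too, such as the microglial C1qa at 48.5 (8.48 to 1935), the ependymal Foxj1 at 18.6 (3.13 to 757) and the astrocyte gene Aqp4 at 5.26 (2.54 to 12.6).

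Against all other kept brain cells, mostly neuroblasts, astrocytes and neural stem cells by their leading lists, the members were higher by 2-fold or more for 1255 of 11250 genes (11.2%) and lower for 2521 (22.4%). With median scaling the counts were 1690 and 1928. Outside the rule, Hapln2, a link protein of the nodes of Ranvier, led at 182 (89.5 to 431), followed by Opalin at 159 (119 to 217) and Ermn at 129 (101 to 169). Mbp, which joins the cytoplasmic faces of the membrane, had a ratio of 17.7 (17 to 18.5). Without the endothelial-marker members, the Mbp ratio was 24.9 (23.9 to 26) and 950 of 10243 genes (9.27%) were higher, 2808 (27.4%) lower. The 7 neuroblast genes other than Dcx, which the rule limits, and all 12 cell cycle genes compared were lower in the 230 members.

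The 3 remaining comparisons were made between the high-marker cells, the early-gene cells and the progenitors. High-marker cells over progenitors gave 674 of 6322 genes (10.7%) higher and 2458 (38.9%) lower by 2-fold or more. Early-gene cells over progenitors gave 584 of 7458 (7.83%) and 1555 (20.9%). High-marker over early-gene cells gave 653 of 5406 (12.1%) and 1548 (28.6%). CPM are shares of a cell's own RNA, and the median gene had a log2 ratio of -0.66, -0.22 and -0.47 in these comparisons. Scaled to the median gene instead, the counts were 1182 higher and 1412 lower, 811 and 1240, and 1003 and 932. Of the 117 progenitors, 7 had at least 3 UMIs of the mural list, whose sum stood at 771 CPM there against 7.62 and 7.75 CPM in high-marker and early-gene cells. Leaving these progenitors out, 137 of 138 list genes past 2-fold that were still compared kept their call in high-marker cells and 103 of 105 in early-gene cells, and none reversed. Counts of list genes are given with total scaling and, where they differ, with median scaling.

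Most myelin genes compared were higher than in progenitors in early-gene and in high-marker cells. Outside the 4 rule genes, 7 of 9 compared were higher in early-gene cells than in progenitors by 2-fold or more, and 13 of 14 in high-marker cells (14 with median scaling), beside 7.83% and 10.7% of all genes. With no upper limit of genes, 5 of 12 were higher and 3 lower in early-gene cells, and 13 of 14 higher in high-marker cells. The progenitors set beside them had then changed too. Cldn11, which forms the tight junctions of the sheath, stood at 38.8 CPM (24.3 to 58.8) in progenitors, 1248 CPM (1153 to 1348) in early-gene cells and 5257 CPM (5033 to 5488) in high-marker cells. It had 0, 7 and 48 UMIs per early-gene cell and 6, 62.5 and 157 per high-marker cell as lowest, median and highest, and these ranges overlapped. Mbp was close to its high-marker share in early-gene cells, at 5793 CPM against 240.1 in progenitors and 4710.4 in high-marker cells. Its early-gene over progenitor ratio was 24.1 (20.3 to 28.9), or 8.17 with no upper limit of genes. Its high-marker over early-gene ratio was 0.813 (0.767 to 0.862) with total scaling, 1.12 with median scaling and 1.37 with no upper limit of genes, so its direction turned with either choice. Cldn11 ratios over progenitors were 32.1 and 135 in early-gene and high-marker cells, or 2.8 and 13.2 with no upper limit of genes, where the progenitors differed too. The Cldn11 high-marker over early-gene ratio was 4.21 (3.85 to 4.61), or 4.72 (4.49 to 4.97) with no upper limit. Cnp, an enzyme of non-compact myelin, had a high-marker over early-gene ratio of 1.47 (1.39 to 1.56), or 2.03 with median scaling.

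Other myelin genes were found mostly in high-marker cells. Opalin, a sialylated membrane protein of the sheath, had 2 UMIs in all early-gene cells and 642 in high-marker cells (4, 18 and 62 per cell), a ratio of 421 (116 to 3483) that was 65.3 with no upper limit of genes and 795 without the shared barcodes. Ermn, which links the membrane to actin, had 0 and 722 UMIs, which makes its ratio at least 316 when 3 counts are taken as the floor. Gjb1, a gap junction protein, had a ratio of at least 68.6. Letting in barcodes of 4000 genes or more put the ratio of Ermn at 2021 (362 to 79853) and that of Gjb1 at 140.3 (47.7 to 683).

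**Figure D4:**
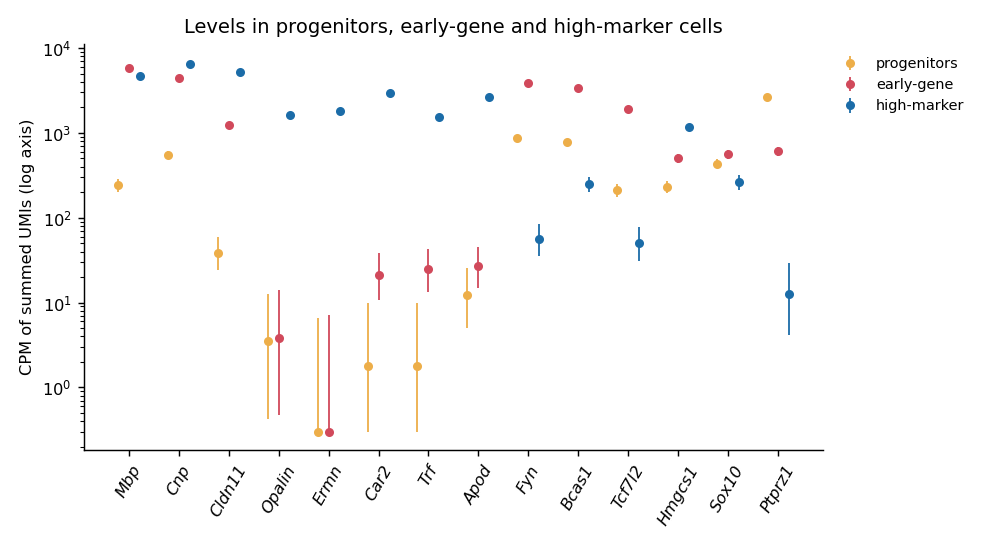
Points give the CPM of 14 genes in progenitors, early-gene cells and high-marker cells on a log axis, with exact Poisson 95% intervals, and Ermn at 0 UMIs is drawn at 0.3. Cldn11 and Cnp climb over the 3 groups, Opalin, Ermn, Car2, Trf and Apod stand apart in high-marker cells, and Fyn, Bcas1 and Tcf7l2 peak in early-gene cells.

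Of 13 compared genes listed for late, mature oligodendrocytes, 12 were higher in high-marker than in early-gene cells, with a median ratio of 20.5, beside 12.1% of all genes. Car2 had 0, 39 and 69 UMIs per high-marker cell and was found in 96.9% of them, against 3.33% of early-gene cells (ratio 137, 76.3 to 275). Apod, an apolipoprotein, was found in 90.6% and 16.7% (ratio 98.7, 58.6 to 181), with 0, 39 and 71 UMIs per high-marker cell. Gsn (gelsolin, 20.5, 14.9 to 29.2), Qdpr (dihydropteridine reductase, 30.7, 22.1 to 43.9) and Cryab (a small heat shock protein, 4.45, 4.07 to 4.87) were higher as well. When barcodes of 4000 genes or more were let in, the ratios of Apod, Qdpr, Cryab and S100b were 60.1, 19.8, 2.3 and 0.116. S100b went the other way, with a ratio of 0.0294 (0.017 to 0.0474), at 1469 CPM in early-gene and 43.2 CPM in high-marker cells. The high-marker over early-gene ratio of Car2 was 137 and 1486 when early-gene cells needed 3 early UMIs. Klk6 and Il33, often given for the most mature cells, had 4 and 9 UMIs in all 32 high-marker cells, too few to compare.

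The genes of newly formed oligodendrocytes had the opposite profile. Outside the 5 genes used to draw the groups, Fyn, a kinase of early myelination, stood at 870.3 CPM (795 to 951) in progenitors, 3902 CPM (3733 to 4076) in early-gene cells and 55.9 CPM (35 to 84.6) in high-marker cells. It had 0, 36.5 and 65 UMIs per early-gene cell and 0, 1 and 2 per high-marker cell. Bcas1 stood at 782, 3381 and 249 CPM. Itpr2, a calcium release channel, stood at 316, 645 and 7.62 CPM. Nfasc, which assembles the paranodal junction, was at 587 CPM in high-marker cells against 1910.3 CPM in early-gene cells. Outside the 5 genes that drew the groups, all 7 compared genes of this list were lower in high-marker than in early-gene cells, beside 28.6% of all genes. This depended on the upper limit of genes. When barcodes with 4000 genes or more were let in, 3 of the 7 were lower and 1 was higher, Rras2, a small GTPase, at 4.6 (3.66 to 5.84). The Fyn and Bcas1 ratios were then 0.134 and 0.155 in place of 0.0143 and 0.0736, while Itpr2 at 0.563 (0.507 to 0.625), Nfasc at 1.01 (0.962 to 1.06) and Cnksr3 at 1.6 (1.37 to 1.87) were no longer past 2-fold. Tmem2, which belongs to the 5, turned from a ratio of at most 0.123 to 13 (9.65 to 17.9).

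Outside Olig1 and Olig2, which chose the progenitors, 2 of 11 lineage factors compared were higher and 6 lower in high-marker than in early-gene cells (4 and 4 with median scaling), beside 12.1% and 28.6% of all genes. Against progenitors 4 of 12 were higher and 5 lower (4 and 3), beside 10.7% and 38.9% (18.7% and 22.3%). Tcf7l2, a Wnt pathway factor, was found in 100% of early-gene cells at 1897 CPM, against 212 CPM in progenitors and 50.8 CPM in high-marker cells, and after thinning to 1000 UMIs a UMI was found in 84.5%, 15.5% and 6.25% of cells. With no upper limit of genes its high-marker over progenitor ratio turned from 0.24 to 3.37 (2.91 to 3.93), and its high-marker over early-gene ratio moved from 0.0268 to 0.479 (0.449 to 0.51). Nkx6-2, a homeodomain factor of myelin genes, had no UMI in progenitors and stood at 118 CPM in early-gene and 709 CPM in high-marker cells. Its ratios over progenitors with no upper limit of genes were 2.72 and 11.7. Myrf, the activator of central myelin genes, and St18 were higher than in progenitors in early-gene and high-marker cells, Myrf at 5.49 (2.84 to 11.6) and 8.37 (4.38 to 17.6) and St18 at 8.12 (3.18 to 26.5) and 12.4 (4.91 to 40). Zfp536 had a high-marker over progenitor ratio of 6.4 (3.8 to 11.3). Sox8 was lower in high-marker cells than in progenitors, at 0.389 (0.292 to 0.513), but not past 2-fold with median scaling, at 0.614. Olig2 and Sox10, which define the lineage, were lower in high-marker than in early-gene cells at 0.34 (0.271 to 0.425) and 0.469 (0.371 to 0.589), but Sox10 was not past 2-fold with median scaling (0.648) or with no upper limit of genes (0.705). Sirt2, a tubulin deacetylase listed with these factors, stood at 694, 5651 and 668 CPM in progenitors, early-gene and high-marker cells. Its high-marker over early-gene ratio moved from 0.118 to 0.401 with no upper limit of genes.

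**Figure D5:**
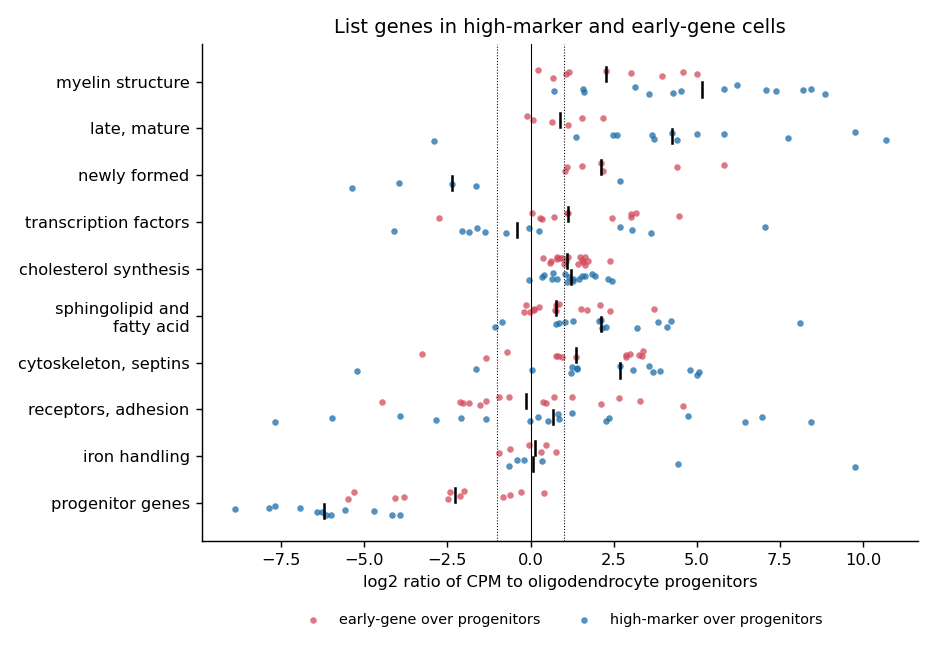
Each point is a list gene with its log2 ratio of CPM to progenitors, in early-gene cells (red) or high-marker cells (blue), black ticks mark the median of each list, and genes of the rule and of the group limits are left out. Genes at 0 UMIs in either group are drawn at their 3-count bound. Myelin, late, sphingolipid and septin genes reach further in high-marker cells, newly formed genes are positive in early-gene cells and mostly negative in high-marker cells, and cholesterol genes have like medians in both.

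Of the genes of cholesterol synthesis, 12 of 19 compared genes were higher by 2-fold or more in early-gene cells (16 with median scaling) and 13 of 19 in high-marker cells (17), none lower in either, beside 7.83% and 10.7% of all genes higher (10.9% and 18.7% with median scaling). Leaving out members with markers of other types, 8 of 12 were higher in high-marker cells, fewer genes being compared. The median ratios of the 19 genes were 2.17 and 2.4, and that of the 20 compared between high-marker and early-gene cells was 1.2. Hmgcs1, which makes the precursor of the pathway, stood at 231, 502 and 1166 CPM in progenitors, early-gene and high-marker cells. With no upper limit of genes its early-gene over progenitor ratio was 1.96, under 2-fold, in place of 2.17. Fdps, which makes farnesyl diphosphate, stood at 108, 314 and 391 CPM. Per cell, the summed level of the 21 listed genes had a median of 21.5 UMIs per 10000 in early-gene cells and 35.1 in high-marker cells, with ranges of 0 to 165 and 7.82 to 115 that overlapped.

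Of the genes of sphingolipids and fatty acids, in early-gene cells 5 of 15 were higher than in progenitors and in high-marker cells 11 of 15, or 6 and 13 with median scaling, beside 7.83% and 10.7% of all genes (10.9% and 18.7% with median scaling). Fa2h, which hydroxylates the fatty acids of myelin galactolipids, stood at 42.4, 180.2 and 727 CPM, and Cers2, which makes very long chain ceramides, at 106, 192 and 973 CPM. Elovl7, a fatty acid elongase, whose ratios over progenitors moved from 13.1 and 18.5 to 4.25 and 7.83 with no upper limit of genes, stood at 28.2, 370 and 523 CPM. Aspa, which frees acetate from N-acetylaspartate, had 0 UMIs in early-gene cells and 380 in high-marker cells (0, 12 and 26 per cell). The high-marker over progenitor ratios of Fa2h and Cers2 were 17.2 and 9.19, or 8.41 and 5.96 with no upper limit of genes.

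Of 16 cytoskeletal genes compared, 8 were higher and 3 lower in high-marker than in early-gene cells (11 and 3 with median scaling), beside 12.1% and 28.6% of all genes. The septin Sept4 had a ratio of 19 (15 to 24.4) and Sept8 4.31 (3.32 to 5.65), the latter 1.95 (1.67 to 2.28) and not past 2-fold with no upper limit of genes, while Sept7, their common partner, had 1.22 (1.12 to 1.32). The microtubule regulators Stmn1 and Stmn4 were lower in early-gene cells than in progenitors, at 0.103 (0.0364 to 0.237) and 0.391 (0.225 to 0.652), and higher in high-marker cells, at 8.52 (6.53 to 11.3) and 14.7 (11.3 to 19.6). Dynll2, a dynein light chain, Map1b and Tubb2b were the 3 lower genes, at 0.033 (0.0238 to 0.0446), 0.0989 (0.0784 to 0.123) and 0.0103 (0.00414 to 0.0214). With no upper limit of genes these were 0.139, 0.34 and 0.0772, and Stmn1 and Stmn4 over progenitors 3.44 and 8.16 in high-marker cells. Tppp, a tubulin polymerizing protein of oligodendrocytes, was higher in each step, at 14.1, 143 and 396 CPM, with ratios over progenitors of 10.2 and 28.1 that were 3.27 and 11.7 with no upper limit of genes.

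Of the iron genes, Fth1 and Trf differed most. Fth1, the ferritin heavy chain, stood at 997 CPM (917 to 1083) in progenitors, 1248 CPM (1153 to 1348) in early-gene cells and 21522 CPM (21066 to 21985) in high-marker cells, with 0, 292 and 491 UMIs per high-marker cell. Trf stood at 1.77 CPM (0.0447 to 9.84), 25.2 CPM (13.4 to 43.1) and 1522 CPM (1402 to 1649). Ftl1, the light chain, had a high-marker over progenitor ratio of 1.28 (1.02 to 1.6) and Tfrc, the transferrin receptor, 0.88 (0.375 to 1.97), neither past 2-fold, whereas with median scaling Ftl1 was, at 2.02. Of 6 iron genes compared, 2 were higher in high-marker cells than in progenitors (3 with median scaling) and 0 of 6 in early-gene cells, beside 10.7% (18.7%) and 7.83% of all genes. The high-marker over early-gene ratios of Fth1 and Trf were 17.2 (15.9 to 18.7) and 60.4 (35.1 to 114), or 10.5 and 36 with no upper limit of genes. Slc40a1, the iron exporter, had 0 UMIs in high-marker cells but 191 in endothelial-marker members, which also held 3011 CPM of Fth1.

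Of 17 receptor and adhesion genes compared, 6 (35.3%) were higher (7 with median scaling), beside 12.1% of all genes, and 5 (29.4%) lower in high-marker than in early-gene cells, the lower share being close to the 28.6% of all genes. Lpar1, a lysophosphatidic acid receptor, Gpr37, S1pr5, a sphingosine phosphate receptor, Fgfr2 and Erbb3, a neuregulin receptor, were higher in high-marker than in early-gene cells, at 14.5 (9.35 to 23.5), 56.4 (25.6 to 155), 97 (16.9 to 3884), 31.7 (13.2 to 99.5) and 19.7 (7.3 to 74.5). Erbb3 stood at 31.8, 7.75 and 152 CPM in progenitors, early-gene and high-marker cells, lowest in the early-gene cells. The ratios of S1pr5, Fgfr2 and Erbb3 with no upper limit of genes were 39.3, 19.7 and 8.78, and with the mean of per-cell CPM Erbb3 was at 7.34. The semaphorin genes Sema4d and Sema5a and the plexin Plxnb3 were highest in early-gene cells, with high-marker over early-gene ratios of 0.226 (0.121 to 0.394), 0.0993 (0.0597 to 0.157) and 0.243 (0.175 to 0.332). With no upper limit of genes these were 1.2 (1 to 1.44) for Sema4d, which was then not lower, 0.433 (0.379 to 0.493) and 0.393 (0.34 to 0.452). Lingo1, an inhibitor of myelination, had 66, 21 and 0 UMIs.

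All 15 listed progenitor genes were lower by 2-fold or more in high-marker cells and 10 of 15 in early-gene cells, with 3 genes of the group limits, Pdgfra, Cspg4 and Gpr17, among the 15. Of all genes compared, 38.9% and 20.9% were lower. Tnr, tenascin-R, Vcan, versican, and Sox6 passed 2-fold in high-marker but not early-gene cells when set against progenitors, at 411, 783 and 304 CPM in early-gene cells against 2.54, 5.08 and 7.62 CPM in high-marker cells. Their early-gene over progenitor ratios were 1.32 (1.08 to 1.62), 0.658 (0.58 to 0.745) and 0.824 (0.666 to 1.02). Ptprz1, a receptor phosphatase, stood at 2637, 606 and 12.7 CPM. When barcodes of 4000 genes or more were let in, the high-marker over early-gene ratios of Tnr, Vcan, Sox6 and Ptprz1 moved from 0.00619, 0.00649, 0.0251 and 0.0209 to 0.129, 0.0459, 0.0565 and 0.0865. Of the cell cycle genes, 6 of 7 compared were lower in high-marker cells and 8 of 9 in early-gene cells, and Mki67, a proliferation marker, had 0 and 2 UMIs there against 110 in progenitors.

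Few Nestin transcripts were found in either group. Nes had 1 UMI in 32 high-marker cells and 0 UMIs in 60 early-gene cells, against 17 UMIs in 117 progenitors. At 1000 UMIs per cell, no Nes UMI was found in 32 high-marker and 58 early-gene cells, and 3 cells taken as the limit of a count of 0 allow shares of up to 9.38% and 5.17%, whereas 25.8% of endothelial-marker members had 1 or more. Sox2, a stem cell and glial factor, stood at 311, 663 and 83.8 CPM in progenitors, early-gene and high-marker cells, and its high-marker over early-gene ratio of 0.127 was 0.214 with no upper limit of genes. Of the membrane glycoproteins, Gpm6b stood at 1444, 845 and 3272 CPM (high-marker over progenitor ratio 2.27, or 1.46 with no upper limit of genes) and Gpm6a at 565, 147 and 20.3 CPM.

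By size alone, and leaving out the genes that chose the groups, the largest early-gene over progenitor ratios among genes with enough UMIs were those of Rassf10 at 144 (25.4 to 5722), Cnksr3, a gene of the newly formed list, at 56.5 (15.3 to 473), Poc1a at 56 (9.6 to 2254) and Gm13187, at least 43.5. Rassf10 had 131 UMIs in early-gene cells, in 73.3% of them, and 0 in high-marker cells. Over early-gene cells, high-marker cells had their largest ratios outside those genes for Pdlim2, a PDZ and LIM domain protein, at 553 (98.8 to 21909), Opalin, given above, Hcn2, a pacemaker channel, at 407 (72.4 to 16108), Ermn, Gng11, a G protein subunit, at 286 (78.7 to 2368) and Cntn2, an adhesion protein of the juxtaparanode, at 218 (38.5 to 8649). Pex5l, a partner of such channels, was at 154 (42.2 to 1279.8). The smallest ratios outside them were those of Rtn1, a reticulon, at 0.00431 (0.00117 to 0.0111) and Slc1a1, a glutamate transporter, at 0.00442 (0.000111 to 0.0248), and Sox4, a factor of immature cells, was at 0.0095 (0.00195 to 0.028). Letting in barcodes of 4000 genes or more put Rtn1, Slc1a1 and Sox4 at 0.156, 0.365 and 0.175, and Rassf10 and Poc1a at 13.5 and 9.72 over progenitors. Hcn2, Cntn2, Pex5l and Pdlim2 were then at 214, 105, 35.2 and 1346. Leaving out members with markers of other types made the ratio of Hcn2 at least 98.6 and that of Gng11 185.

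A coarser split used all members, with 74 that had at least 2 early UMIs set against the other 156, which included most of the endothelial-marker members. Of 8039 genes, 1125 (14%) were higher and 1515 (18.8%) lower. All 10 compared progenitor genes, among them Gpr17, which helped to draw the split, and 10 of 13 lineage factors were higher, and all 6 endothelial genes lower. Opcml, a cell adhesion gene, was at 64.9 (42.7 to 104) and Epcam, an epithelial adhesion gene, at least 55.5, with 130 UMIs against 0. The smallest ratio was that of the globin gene Hbb-bs at 0.00236 (0.000764 to 0.0055), with 5 UMIs against 2717.

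The 45 remaining cells were shallow and mixed. Mobp gave 50.9% of their 334 marker UMIs. In 22 cells Mobp was the only marker found, and 13 of those had at least 3 UMIs of the astrocyte and quiescent stem cell list. In 3 cells it was Mal alone, all 3 with ependymal markers. The 16 cells with Mag or Mog held 1846.5 UMIs at the median and 39.5 of the check genes, and 1 of them had astrocyte markers. Mobp gave the largest share of marker UMIs in some cells outside the set as well, with 60.7% of the marker UMIs in 1991 cells led by neuroblast genes, at 27 CPM, and 70.4% in progenitors.

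Astrocyte and stress genes were found in part of the high-marker and early-gene cells. The endothelial list was held under 3 UMIs per cell when these groups were drawn, so its low level in them is no finding. The astrocyte and quiescent stem cell list reached at least 3 UMIs in 13 of 32 high-marker and 8 of 60 early-gene cells, with medians of 2 and 1 UMI and highest values of 37 and 212. The list of immediate early and stress genes, which can mark handling of cells, reached at least 3 UMIs in 53.1% of high-marker cells, 1.67% of early-gene cells and 39.3% of progenitors, at 305, 85.2 and 859.7 CPM in sum. Of Schwann cell genes, which would mark peripheral myelin, Pmp2, Cldn19, Egr2 and Gfra3 had none in any member. The part of these transcripts in the comparisons was not tested, other than by leaving out every member with at least 3 UMIs of any other-type list, which kept 86 members and is given with the limits.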

How the data were processed

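Droplet libraries were available from brain and lung, 1 of each, each a table of UMI counts per gene and barcode. Per the labels and the study's methods, the deposited counts were made by the authors with UMI-tools (1.0.0 in the submitters' processing notes, while the study's methods name another release), alignment by STAR 2.7.1a to mm10 and featureCounts 1.6.4, with no normalization. UMI-tools removes repeated reads of 1 molecule. Reads that fall on overlapping genes or near-identical copies can be split or lost when they are aligned and assigned to genes. Here UMIs were summed over the cells of a group, divided by the group total as CPM and compared as a ratio with an exact 95% interval (scipy 1.17.1, pandas 2.3.3, numpy 2.4.6, Python 3.11.15). A gene was compared where the pooled rate gave at least 10 expected UMIs in each group. A gene at 0 UMIs in either group took a floor of 3 counts. With 1 library per group no test was possible, so a gene was counted by size alone, at 2-fold or more. The ratio code was tested on simulated data. Doublets were called with Scrublet in scanpy 1.11.5, at an assumed rate of 0.06. Cells were thinned to 1000 UMIs for shares of cells.

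The members and all lists were chosen with earlier results of these data known. The list genes could be named, and in addition the 20 largest and 10 smallest ratios per comparison among genes with at least 50 UMIs in the higher group. The split of all members by early genes and the comparison of high-marker with early-gene cells used the 10 largest and 10 smallest, from 20 UMIs in the split. The grouping of the members by endothelial, marker and early-gene UMIs was set with the data seen. Promoter sequences came from RefSeq. The lung library served for shared barcodes, a count of cells meeting the same rule and the Mal level of cells led by the endothelial list. Settings tried were the limits on genes, mitochondrial share, marker and early UMIs, other scalings, no low-count filter, and leaving out doublet calls, shared barcodes, cells with markers of other types or progenitors with mural markers. Single values of a few list genes are not reported here.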

Additional observations from a re-analysis of the deposited data

Results flagged for a closer look

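In the lung library, which the report used for barcodes and 1 level of Mal, 17 of 5608 kept cells met the same marker rule. Mal gave 97 of their marker UMIs and Mag 2. They held 32 UMIs of Olig1, Olig2 and Sox10 together, and 6284 UMIs per cell at the median. None had 3 or more endothelial UMIs. They were listed because the rule was written for brain cells and found cells in a tissue outside the central nervous system. What these cells are was not tested.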

How the results depend on the processing

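No paired analysis was possible because each tissue had 1 library and nothing was tested. The number of members was 359 with no upper limit of genes, 139 with at least 5 marker UMIs and 137 without the endothelial-marker members. With no upper limit the high-marker cells numbered 85 and the early-gene cells 131, and 7 of 12 compared genes of the newly formed list, 4 of them among the genes that drew the early-gene cells, were lower in high-marker than in early-gene cells. With no low-count filter, the genes higher and lower by 2-fold or more were 1817 and 3881 for members over progenitors, 1208 and 5020 for high-marker cells over progenitors, 1167 and 3346 for early-gene cells over progenitors, and 1420 and 3187 for high-marker over early-gene cells, with 3149 higher for members over all other cells. Scaled to the median gene, they were 1182 and 1412 for high-marker cells over progenitors and 1003 and 932 for high-marker over early-gene cells. Leaving out members with markers of other types gave 670 higher genes over progenitors and 835 over all other cells for members, 429 for high-marker cells over progenitors and 380 for high-marker over early-gene cells. It also gave 8 higher cholesterol genes, of 12 compared, in high-marker cells over progenitors. The cause was not tested. Of list genes past 2-fold, 85 of 96 kept their call in high-marker over early-gene cells with no upper limit of genes, 9 lost it and 2 reversed (Tmem2 and Rras2). Over progenitors 123 of 141 kept it in high-marker cells, with 2 reversed (Tcf7l2 and Tnfrsf21, at 2.04), and 93 of 107 in early-gene cells, with 1 reversed (Mobp, at 0.258). The progenitors themselves also changed when that limit was lifted. Leaving out the endothelial-marker members or all members with markers of other types reversed 2 and 6 list genes for members over progenitors and 9 and 10 over all other cells. The other settings reversed none of the list genes that stayed compared. Of the choices, the endothelial limit, the shared barcodes, the progenitors without mural markers and the limits of the high-marker and early-gene cells were added after the data were seen. All groups compared came from 1 brain library, so no difference was checked in other animals, sorts or runs, and low genes such as Klk6 were beyond this depth.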
